A study of Mus musculus with 79 samples.

Results

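The genes described here are the 914 autosomal genes whose annotated span, from start to end in the RNA-seq table, was 200 kb or more. They were 914 of 24483 autosomal genes, or 3.73%, yet held 37.6% of the summed span of autosomal genes. Their span ranged from 200030 to 4434881 bases with a median of 315614 bases, and 186 of them reached 500 kb. The summed length of their exons was far smaller, with a median of 7080 bases against 4810 bases for genes of 50 to 100 kb and 2481 bases for all autosomal genes.

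Very long genes consist almost entirely of introns, and in the brain many of them encode proteins of the synapse, axon guidance receptors and ion channels. A single transcript takes RNA polymerase II hours to complete, so that long genes differ from short genes in how transcription and the marks laid down with it spread over the body. H3K4me3 marks active and poised promoters, H3K27me3 is laid down by the Polycomb repressive complex, and H3K36me3 is laid down over the bodies of transcribed genes and is bound by the PWWP domain of DNMT3A, an enzyme that methylates DNA de novo.

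The study asked what a point mutation of that domain does in mice, and compared hypothalamus, the part of the brain that controls hormones, feeding and body temperature, from +/+ mice with that from Δ/D329A mice of about 14 weeks. The D329A allele, inherited from the father, carries the PWWP mutation, and the Δ allele, inherited from the mother, is a Dnmt3a deletion made in the oocyte with Zp3-Cre, so that every cell of the mutant carries only the mutant form and a single copy of it, and the effect of the mutation cannot be told apart from that of the lost copy. Both groups were on a C57BL/6 background and each library came from a single animal. RNA-seq had 5 +/+ and 4 Δ/D329A libraries, and ChIP-seq had 3 libraries of each genotype for H3K4me3, H3K27me3, H3K36me3 and the input, which is chromatin without antibody. The authors left out a further Δ/D329A RNA-seq library after quality control. They state that each ChIP-seq sample served for all the marks and the input, so the marks share animals.

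Of the long genes, 898 matched a RefSeq gene, among them 877 protein-coding genes and 19 long non-coding RNAs, and 16 did not match. The RefSeq span was under 200 kb for 30 of the matched genes. The 2 longest rows were of this doubtful kind. Gm20388, a row of 4434881 bases that overlapped 82 other genes, had no RefSeq match, and Fgfr2, a fibroblast growth factor receptor listed at 2960899 bases, spans 104360 bases in RefSeq. The genes next in length were all matched at nearly the same length, namely Ptprd, a receptor tyrosine phosphatase of the synapse (2270723 bases), Cntnap2, a neurexin-like adhesion protein of the axon (2241308), Lrp1b, a lipoprotein receptor (2058350), Macrod2 (1997657), Csmd1 (1643049) and Nrxn3, a presynaptic adhesion protein (1612059). Each autosome held between 22 and 79 long genes, and 382 of the long genes overlapped at least 1 other gene. The rows just above the limit were Pcbp3 (200030 bases) and Plcxd3 (200062), and those just below it were Atp9b (199915) and Morc1 (199668).

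The RNA-seq libraries held 5618000 to 9977000 reads on genes in +/+ and 3874000 to 6599000 in Δ/D329A, and the ChIP-seq libraries 12676361 to 30207875 mapped reads. Dnmt3a itself had 3.28 to 4.31 RPKM (reads per kilobase of exon, scaled to the mapped reads of the library) in +/+ and 2.84 to 3.30 in Δ/D329A, which overlap, and a value for the whole gene does not check a point mutation. Defining markers of neurons, astrocytes, oligodendrocytes, microglia and hypothalamic neuropeptides were all detected, with none under 0.1 RPKM in every library. H3K4me3 Δ/D329A replicate 1 stood apart, with a median of 0.314 RPM per tile over the genome (RPM, the reads in a tile of 2 kb scaled to the mapped reads of the library) against 0.0789 to 0.1995 in the other 5 H3K4me3 libraries.

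Promoter sequences are shown for 3 of the long genes whose promoter H3K27me3 separated the genotypes, and for App, the most highly expressed long gene. Each runs from 250 bases before the start of transcription to 50 bases after it in GRCm38.p6, with every CG dinucleotide, the site of most DNA methylation, in capitals. Those of Sfmbt2, Sox6 and App are RefSeq promoters, and that of Rsrc1 was read from the RefSeq genome at the start given in the RNA-seq table.
Sfmbt2 (chr2:10370201-10370500, + strand): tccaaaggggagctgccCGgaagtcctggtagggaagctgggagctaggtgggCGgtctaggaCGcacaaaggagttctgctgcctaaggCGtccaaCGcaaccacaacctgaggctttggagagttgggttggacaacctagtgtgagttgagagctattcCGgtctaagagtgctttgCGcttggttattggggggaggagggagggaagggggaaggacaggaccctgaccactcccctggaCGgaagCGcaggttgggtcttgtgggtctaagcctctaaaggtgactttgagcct
Rsrc1 (chr3:66981140-66981439, + strand): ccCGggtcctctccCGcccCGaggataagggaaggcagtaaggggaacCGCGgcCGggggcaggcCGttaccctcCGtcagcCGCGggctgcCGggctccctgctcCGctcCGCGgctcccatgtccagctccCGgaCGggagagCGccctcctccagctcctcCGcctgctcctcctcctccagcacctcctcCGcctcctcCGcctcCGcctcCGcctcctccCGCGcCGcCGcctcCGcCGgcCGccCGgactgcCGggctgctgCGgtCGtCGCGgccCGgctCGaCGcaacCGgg
Sox6 (chr7:116038695-116038994, - strand): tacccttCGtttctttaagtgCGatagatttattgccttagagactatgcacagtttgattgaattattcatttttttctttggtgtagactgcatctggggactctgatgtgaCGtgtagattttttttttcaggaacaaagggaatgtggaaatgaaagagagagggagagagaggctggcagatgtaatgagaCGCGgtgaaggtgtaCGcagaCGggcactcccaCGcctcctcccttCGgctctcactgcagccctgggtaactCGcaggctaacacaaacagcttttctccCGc
App (chr16:85173658-85173957, - strand): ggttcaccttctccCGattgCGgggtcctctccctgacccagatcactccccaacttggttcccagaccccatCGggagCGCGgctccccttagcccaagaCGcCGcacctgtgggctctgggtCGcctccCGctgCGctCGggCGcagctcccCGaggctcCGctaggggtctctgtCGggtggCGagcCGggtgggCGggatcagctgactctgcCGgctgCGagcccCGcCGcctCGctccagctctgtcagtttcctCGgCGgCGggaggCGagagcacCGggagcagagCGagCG

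The windows of Rsrc1 and App were rich in CG, with 39 and 30 copies and 77.3% and 71.0% G and C bases. Sox6 had 11 copies and Sfmbt2 9. A RefSeq promoter starting within 500 bases of the listed start was found for 557 of the 914 long genes. Their median was 21 CG copies, and 78.8% had 10 or more, against 14 and 59.7% over 15296 autosomal promoters. The TATAAA motif, searched on the strand of the gene only, was present in 2.51% of the long-gene windows and in 8.87% of all autosomal ones. Genes of 50 to 100 kb had the same median of 21 CG copies, and genes under 10 kb had a median of 6.

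Long genes were more often expressed in the hypothalamus than shorter ones. At 0.1 RPKM or more in at least 4 libraries, 863 of the 914 long genes (94.4%) were tested, compared with 69.7% of all autosomal genes, and this is a count of members that passed a filter on level. The median +/+ level over all genes was higher at greater span, from 0.116 RPKM under 10 kb through 1.38 at 10 to 50 kb, 2.62 at 50 to 100 kb and 2.86 at 100 to 200 kb to 3.21 at 200 to 500 kb and 4.44 at 500 kb or more. The 8 most abundant long genes in +/+ were App, the amyloid precursor protein, Ncam1, a neural cell adhesion molecule, Mtap2 (Map2), a protein of dendritic microtubules, Celf4, a neuronal RNA-binding protein, Gria1, an AMPA glutamate receptor subunit, Rab3c, a GTPase of synaptic vesicles, Cadps, which primes dense-core vesicles, and Ptprn2, a phosphatase-like protein of those vesicles. App stood at 258, 207, 197, 147 and 142 RPKM in +/+ and at 218, 174, 195 and 234 RPKM in Δ/D329A, so the genotypes overlapped.

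**Figure D1:**
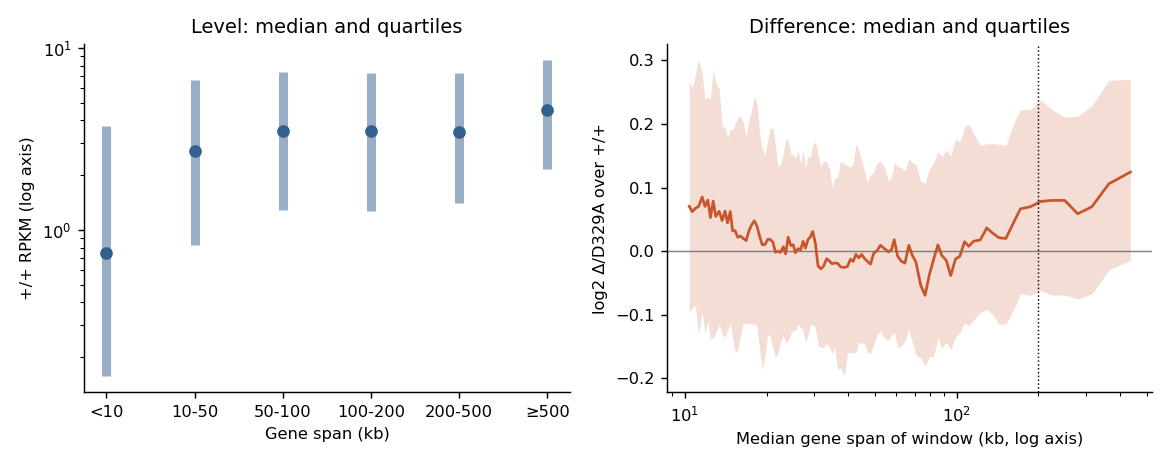
Left, the level in +/+ (RPKM, log axis) of tested autosomal genes by span, with the median as a point and the quartiles as a bar, which rises to 4.57 RPKM at 500 kb or more. Right, the log2 difference of Δ/D329A from +/+ in running windows of 300 tested genes ordered by span, from 10 kb on, with the median as a line and the quartiles shaded. The line lies between -0.0695 and 0.0179 at 50 to 100 kb, with its lowest point at 76.5 kb. It has reached 0.0698 by 187 kb, short of the dotted line at 200 kb. It stands at 0.0588 at 279 kb and at 0.124 in the last window. In the first window, at 10.4 kb, it stands at 0.0706.

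In Δ/D329A hypothalamus the long genes as a group lay slightly above genes of middle length. The median log2 difference of Δ/D329A from +/+ was 0.02 at 10 to 50 kb (6879 genes), -0.01 at 50 to 100 kb (2087), 0.02 at 100 to 200 kb (1261), 0.09 at 200 to 500 kb (683) and 0.12 at 500 kb or more (180). Of the 863 tested long genes, 587 (68.0%) had a higher mean in Δ/D329A, against 59.7% of all tested autosomal genes. At 500 kb or more the share was 76.7%. Genes under 10 kb had a median of 0.20, but 39.3% of them had no read in at least 1 library and stood at the floor of the deposited values, which is higher in the shallower Δ/D329A libraries. Without genes that lacked a read in any library, their median was 0.08, while the medians at 200 to 500 kb and at 500 kb or more were 0.08 and 0.12, and only 8 long genes were left out.

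The same displacement was seen within each library, where depth cancels. For each library the median log2 RPKM of tested genes of 50 to 100 kb was subtracted from that of the tested long genes. The result was 0.0622, 0.0519, 0.0604, 0.0427 and 0.0988 in the 5 +/+ libraries and 0.254, 0.206, 0.217 and 0.251 in the 4 Δ/D329A libraries. The genotypes did not overlap, and the mean went from 0.0632 ± 0.0213 (SD over 5 +/+ libraries) to 0.232 ± 0.0239 (SD over 4 Δ/D329A libraries), a difference of 0.17 on the log2 scale. Genes of 200 to 500 kb went from -0.01 in +/+ to 0.15 in Δ/D329A and genes of 500 kb or more from 0.41 to 0.56, and the genotypes overlapped in neither bin. Genes of 100 to 200 kb moved in the same direction by a smaller difference of 0.0822, also without overlap.

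**Figure D2:**
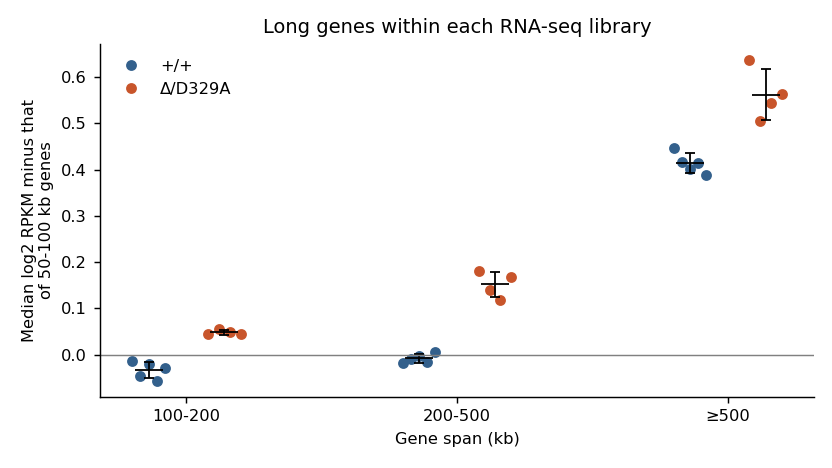
Median log2 RPKM of genes in 3 length bins minus that of genes of 50 to 100 kb, for each of the 5 +/+ (blue) and 4 Δ/D329A (orange) libraries, with the mean and SD. The Δ/D329A points lie above the +/+ points in each bin, at 0.504 to 0.637 against 0.389 to 0.447 for genes of 500 kb or more.

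The size of the difference depended on the genes compared. The genotypes stayed apart against genes of 50 to 100 kb or of 100 to 200 kb, but not against shorter genes or all autosomal genes. It was 0.15 when long genes were compared with genes of 50 to 100 kb of like exonic length, 0.14 without genes that overlap another gene, 0.17 with RefSeq spans of 200 kb or more, 0.11 with untested genes included, 0.10 within classes of +/+ expression, and 0.09 against genes of 100 to 200 kb. Against genes of 10 to 50 kb it was 0.15 but the genotypes overlapped. The main reference, genes of 50 to 100 kb, had the lowest median log2 difference of the length bins, at -0.01. Against genes under 10 kb, and against all autosomal genes together, the differences within libraries overlapped between the genotypes as well. In +/+ replicate 5 the median log2 RPKM was 1.66 for long genes and 0.824 for all autosomal genes. In Δ/D329A replicate 3 these medians were 1.99 and 1.24. Leaving out 1 library at a time gave 0.16 to 0.18. In these bulk libraries fewer cells of a type and less RNA per cell cannot be told apart. Marker genes of cell types differed as well, none of them called by limma, with 9 of 10 microglial markers higher (median 0.41 on the log2 scale), 1 of 10 oligodendrocyte markers higher (median -0.26) and 10 of 15 neuronal markers higher (median 0.10). Of the oligodendrocyte precursor markers, 2 of 8 were higher (median -0.15). Of the astrocyte markers 6 of 10 were higher (median 0.15), and of the endothelial markers 6 of 10 (median 0.10). DESeq2 called 1 oligodendrocyte, 1 precursor, 1 ependymal and 2 neuropeptide genes lower and 1 gene of choroid plexus, meninges and pituitary higher. The summed levels of microglial, oligodendrocyte and neuronal markers overlapped between +/+ and Δ/D329A, at 42.3 to 93.4 against 55.3 to 90.0 RPKM for microglia, 327 to 508 against 222 to 420 RPKM for oligodendrocytes and 529 to 1114 against 718 to 961 RPKM for neurons. The part of cell composition in the shift of the long genes was not tested.

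Gene by gene, limma called no long gene at an adjusted p under 0.01, where 0.107% of 17839 tested genes were called. At an unadjusted p under 0.05, 78 long genes were higher (9.04%, against 4.61% of all genes) and 16 were lower (1.85%, against 3.02%). On recovered reads, edgeR called 5 long genes higher and 3 lower of 845 tested, where 0.288% and 0.266% of all genes were called. DESeq2 called 34 higher and 6 lower of 904, where 0.647% and 0.574% of all genes were called, and all 8 edgeR calls were among these 40. By span, DESeq2 called 0.715% of genes of 50 to 100 kb higher, 1.08% at 100 to 200 kb, 3.34% at 200 to 500 kb and 5.38% at 500 kb or more, whereas the share called lower was 0.926%, 0.578%, 0.836% and 0% in the same bins.

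Among long genes with lower expression, Adamts6, a secreted metalloprotease of the extracellular matrix, had the smallest p. Its level was 2.36, 2.19, 2.08, 2.06 and 1.80 RPKM in +/+ and 1.13, 0.927, 1.22 and 1.04 RPKM in Δ/D329A. No Δ/D329A value reached the lowest +/+ value, and the log2 difference was -0.96 ± 0.15 (SE; limma adjusted p = 0.0371, edgeR 0.00186, DESeq2 1.19e-06). Col19a1, a collagen of basement membranes, was at 0.697 to 1.14 RPKM in +/+ and 0.345 to 0.503 in Δ/D329A (log2 difference -1.04, edgeR adjusted p = 0.00717). Dclk1, a kinase of neuronal microtubules, was at 13.9 to 22.1 RPKM in +/+ and 11.5 to 14.0 in Δ/D329A (log2 difference -0.50, edgeR adjusted p = 0.00644), so the highest mutant value just passed the lowest +/+ value. Ttn, the giant protein of muscle, and Sema3a, a secreted guidance cue that repels axons, had log2 differences of -0.88 and -0.69 at low levels, and neither was called by edgeR (adjusted p = 0.0248 and 0.106), though DESeq2 called Ttn.

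Among long genes with higher expression, Adamtsl1, an ADAMTS-like protein of the matrix, stood at 1.19, 0.859, 1.09, 0.878 and 0.841 RPKM in +/+ and 1.83, 1.35, 2.04 and 1.88 RPKM in Δ/D329A (log2 difference 0.87 ± 0.19 SE, edgeR adjusted p = 0.00134). Camk1d, a calcium-dependent kinase, went from 3.53 to 4.71 RPKM in +/+ to 5.35 to 6.71 RPKM in Δ/D329A (log2 difference 0.58, edgeR adjusted p = 0.00856). Neither overlapped between genotypes, nor did Egfem1 (1.91 to 2.58 RPKM against 2.97 to 3.55, DESeq2 adjusted p = 0.00292) or Wdfy4 (0.107 to 0.202 RPKM against 0.271 to 0.358, DESeq2 adjusted p = 0.0234), of which Wdfy4 did not reach the threshold of 0.01. Plekhg1 had the largest log2 difference after Wdfy4 among the 5 genes with the smallest p, 0.997, but its Δ/D329A values were spread from 3.65 to 7.79 RPKM and it was not called (DESeq2 adjusted p = 0.043). Cdyl, a chromodomain protein that binds repressive histone marks, was chosen after its values were seen, as the remaining gene called by edgeR, with 3.96 to 8.72 RPKM in +/+ and 8.45 to 10.7 RPKM in Δ/D329A (log2 difference 0.71, edgeR adjusted p = 0.00283).

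The long genes were next read by the role of their products, for 11 lists of neuronal, signalling and nuclear proteins. Limma called no gene of any list, where 0.107% of all genes were called, and the DESeq2 calls stand beside 0.647% of all genes called higher and 0.574% called lower. Counts of members with a higher mean stand beside 68.0% of all tested long genes and 59.7% of all tested autosomal genes. Of 63 long genes of cell adhesion and synapse organisation, 47 had a higher mean in Δ/D329A (median log2 difference 0.10), and DESeq2 called only Cntnap2, at 12.7 to 18.1 RPKM in +/+ and 18.1 to 22.0 in Δ/D329A (adjusted p = 0.000617). The most abundant members were Ncam1 (62.1 ± 12.2 RPKM in +/+ and 59.1 ± 5.08 in Δ/D329A), Cntn1, a GPI-anchored contactin (34.8 ± 7.72 and 36 ± 5.39), and Pcdh9, a protocadherin (29.4 ± 3.37 and 30.8 ± 4.92), each differing by less than its SD. Of 23 genes of axon guidance, neuregulin and Eph signalling, 14 were higher (median 0.20), and DESeq2 called Robo1, the receptor for Slit proteins, with 4.86 to 6.92 RPKM in +/+ and 7.24 to 9.29 RPKM in Δ/D329A (adjusted p = 0.0082). The neurotrophin receptors Ntrk3 (8.56 ± 1.27 and 9.78 ± 0.383 RPKM) and Ntrk2 (32.4 ± 5.86 and 29.3 ± 2.38 RPKM) had differences of opposite sign, and neither passed an unadjusted p of 0.05.

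Among receptors and channels DESeq2 called 1 gene. Of the 8 receptor tyrosine phosphatases, 6 were higher (median 0.13) and none passed an unadjusted p of 0.05. Of the 14 glutamate receptors, 10 were higher (median 0.09) and none passed either, with Gria1 at 44.1 ± 9.93 RPKM in +/+ and 42.4 ± 3.31 in Δ/D329A. The 6 receptors for GABA, acetylcholine, serotonin and opioids had a median of -0.05 with 2 higher. Of 41 tested ion channel genes, 31 were higher (median 0.10), and DESeq2 called Accn1 (Asic2), an acid-sensing sodium channel, at 7.74 ± 2.49 RPKM in +/+ and 10.4 ± 0.896 in Δ/D329A (adjusted p = 0.00793), though the +/+ values reached 11.8 RPKM. Nalcn, the sodium leak channel, and its partner Unc80 differed by less than their SD, at 20.5 ± 4.44 and 20.1 ± 2.26 RPKM and at 24.1 ± 3.68 and 23.1 ± 2.71 RPKM.

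Signalling and release proteins inside the cell are given beside the same 68.0% of tested long genes above 0. Of 31 scaffolds and proteins of vesicle release, 26 were higher (median 0.13) with no call, and Rims2, a protein of the presynaptic active zone, was at 21.1 ± 3.62 RPKM in +/+ and 26.0 ± 2.69 in Δ/D329A (DESeq2 adjusted p = 0.077). Of 38 second messenger genes, 29 were higher (median 0.13), and DESeq2 called 3 higher and 2 lower. The higher ones were Camk1d, Plcb1, a phospholipase C (7.57 ± 1.31 and 10.8 ± 1.34 RPKM, adjusted p = 0.000349), and Prkce, a protein kinase C (12.6 ± 2.85 and 15.9 ± 0.446 RPKM, adjusted p = 0.00998). The lower ones were Dclk1 and Pde1a, a calmodulin-dependent phosphodiesterase (5.91 ± 1.19 and 4.08 ± 0.194 RPKM, adjusted p = 0.00687). The 8 RNA-binding and splicing factors had a median of 0.02 with 4 higher.

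Of 51 tested transcription factors and chromatin regulators, 38 were higher (median 0.18, +/+ median level 1.90 RPKM), and DESeq2 called 4. These were Tshz2, a zinc finger factor (6.80 ± 1.28 and 9.16 ± 1.14 RPKM, adjusted p = 0.00143), Rora, a nuclear receptor of the circadian clock (6.12 ± 0.634 and 10.6 ± 3.16 RPKM, adjusted p = 0.00463), Setbp1 (2.70 ± 0.316 and 3.58 ± 0.264 RPKM, adjusted p = 0.00872) and Egfem1, which encodes a protein with EGF-like domains and is neither a transcription factor nor a chromatin regulator, so that 3 of the calls were of such genes. Of 19 genes listed as fragile site genes of metabolism and housekeeping, 13 were higher with a median of 0.03 and no call. Whether each lies at a fragile site was not checked. The 561 tested long genes in no list had a median of 0.09, and 367 of them were higher.

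At promoters, from 1500 bases before the start to 500 after it, long genes at 1 RPKM or more had a higher median H3K27me3 in +/+ than shorter genes of the same expression class. A mark was called present where the +/+ mean was at least 2 times the input. Of 913 long-gene promoters with input reads, 68.8% had H3K4me3 alone, 16.5% both marks, 1.42% H3K27me3 alone and 13.3% neither. Both marks were found at 22.6% of genes of 500 kb or more, 15.0% at 200 to 500 kb and 14.3% at 100 to 200 kb. The share was 10.5% at 50 to 100 kb and 8.0% of all autosomal genes. At 1 to 10 RPKM, the median promoter H3K27me3 in +/+ was 0.627 RPM per 2 kb tile for the 582 long genes and 0.213 for 1309 genes of 50 to 100 kb, both under their input of 0.782 and 0.759. At 10 RPKM or more it was 0.520 against 0.179 RPM. This order was not found in the lower classes, where long genes had 1.33 RPM at 0.1 to 1 RPKM, against 1.02 at 50 to 100 kb but 1.34 at 100 to 200 kb, and 0.933 RPM under 0.1 RPKM, against 1.05 at 50 to 100 kb. Median promoter H3K4me3 of long genes was 19.5 RPM at 1 to 10 RPKM and 0.185 RPM under 0.1 RPKM. Promoters of long genes with 10 or more CG copies had median H3K4me3 of 20.8 RPM and H3K27me3 of 0.581, and those with fewer than 10 had 2.55 and 1.08 RPM.

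Over the body, H3K36me3 was lower and H3K27me3 higher at greater span in +/+ from 50 kb on. Median body H3K36me3 was 1.14 RPM at 50 to 100 kb, 0.878 at 200 to 500 kb and 0.727 at 500 kb or more, and median body H3K27me3 was 0.375, 0.518 and 0.530 RPM in these bins. Body input was 0.891, 0.888 and 0.875 RPM. Genes under 10 kb went against this order, with 0.548 RPM of H3K36me3 and 0.663 RPM of H3K27me3, and the medians of all autosomal genes, 0.822 and 0.505 RPM, were close to the 0.835 and 0.524 RPM of the long genes. Within genes at 10 RPKM or more, the 135 long genes had a median body H3K36me3 of 1.02 RPM and the 336 genes of 50 to 100 kb 1.56 RPM, so the lower value was also found among highly expressed genes.

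**Figure D3:**
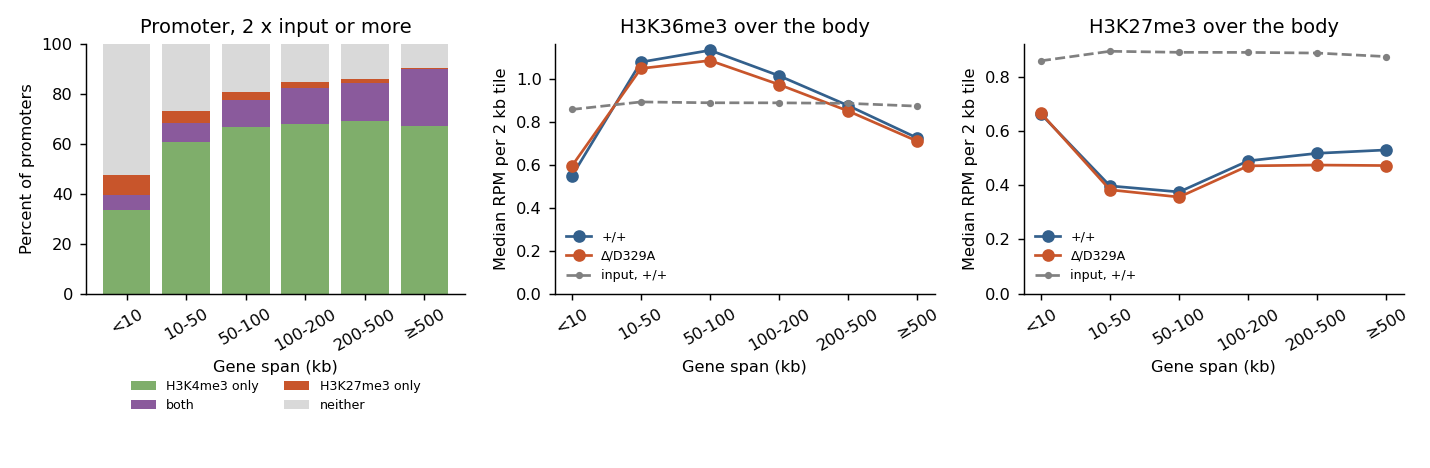
Left, percent of promoters in +/+ with H3K4me3 alone, both marks, H3K27me3 alone or neither, by gene span. Middle and right, median H3K36me3 and H3K27me3 over the body (RPM per 2 kb tile) in +/+ and Δ/D329A, with +/+ input dashed. The share of promoters with both marks reaches 22.6% at 500 kb or more, while body H3K36me3 declines beyond 100 kb.

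Single genes spanned a wide range. The highest body H3K36me3 among long genes was at Dync2h1, the motor of intraflagellar transport (2.56 RPM in +/+), Fry (2.55), Vps13d, a lipid transfer protein (2.44), 4930402H24Rik (2.29) and Mycbp2, a ubiquitin ligase of axons (2.19). These genes were at 6.88 to 22.4 RPKM. The lowest body H3K36me3 among long genes at 10 RPKM or more was at Pcdh9 (0.541 RPM at 29.4 RPKM), Fam155a, a subunit of the sodium leak channel (0.563 RPM at 14.6 RPKM), and Cntnap2 (0.599 RPM at 15.3 RPKM). The highest body H3K27me3 was at the T cell adaptor Skap1 (2.41 RPM), the transcription factors Ebf1 (2.15) and Prdm16 (2.08), Runx1 (1.97), a regulator of blood formation, and Meis2 (1.93), and all of them were at or under 1.03 RPKM.

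Along the body of highly expressed long genes H3K36me3 remained flat and rose only near the 3' end. Over 10 equal parts of the body of the 135 long genes at 10 RPKM or more in +/+, the median was 0.863 RPM in the first, 0.814 in the third, 0.873 in the seventh, 1.10 in the eighth, 1.35 in the ninth and 1.43 RPM in the last. In the 336 genes of 50 to 100 kb it climbed from 0.691 RPM in the first to 1.51 in the fifth and 2.20 RPM in the last. The last part was 1.66 times the first in long genes and 3.19 times in genes of 50 to 100 kb. Each part is an equal share of its gene, so it covers more bases in a long gene. The +/+ input of the 135 long genes was 0.867 RPM in the first part, 0.887 in the seventh and 0.890 in the last. Their H3K36me3 was therefore near input in the first and seventh parts. Over the 3 +/+ libraries the last part ranged from 1.39 to 1.5 RPM in long genes and from 2.18 to 2.24 RPM in genes of 50 to 100 kb, which do not overlap. H3K27me3 was level over the body in both, at 0.280 to 0.340 RPM in long genes and 0.130 to 0.145 RPM in genes of 50 to 100 kb. In Δ/D329A the H3K36me3 profile of long genes kept its form, with 0.828 RPM in the first part, 0.832 in the seventh and 1.34 in the last.

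**Figure D4:**
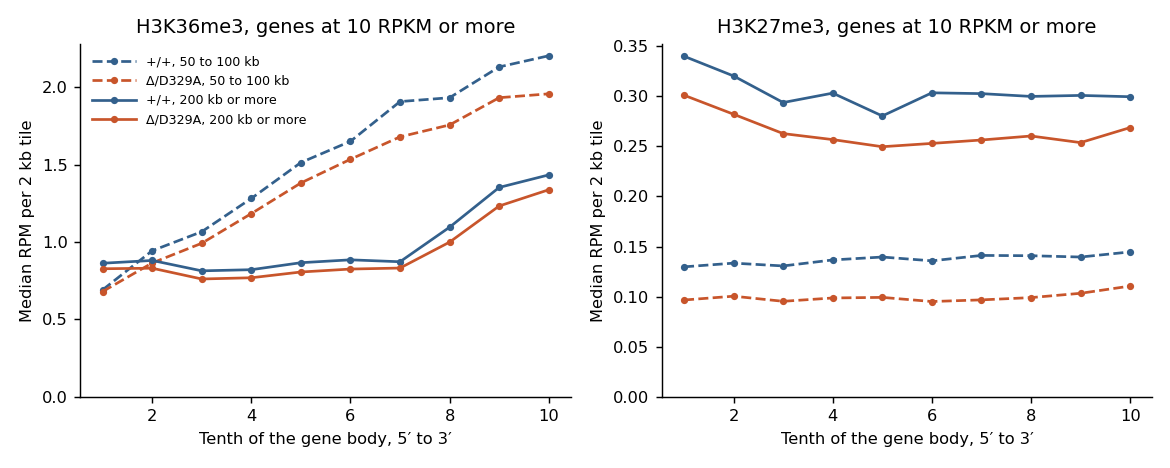
Median H3K36me3 (left) and H3K27me3 (right) in RPM per 2 kb tile in each of 10 equal parts of the body from 5' to 3', for genes at 10 RPKM or more in +/+, with 135 long genes (solid) and 336 genes of 50 to 100 kb (dashed) in both genotypes. H3K36me3 of long genes is flat until the seventh part, at 0.873 RPM, and reaches 1.43 RPM in the last.

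Between the genotypes the marks of the long genes were close. The median body H3K36me3 of long genes was 0.805 to 0.864 RPM in the 3 +/+ libraries and 0.804 to 0.812 in the 3 Δ/D329A libraries, which overlap. For genes of 50 to 100 kb it was 1.13 to 1.16 and 1.07 to 1.09 RPM, without overlap. Among genes at 10 RPKM or more the median was lower in Δ/D329A in both bins. It was 1.02 and 0.954 RPM in the 135 long genes and 1.56 and 1.41 RPM at 50 to 100 kb. In these long genes the genotypes did not overlap in the last part of the body, at 1.39 to 1.5 and 1.31 to 1.36 RPM. Nor did they in the first part, at 0.841 to 0.882 and 0.814 to 0.837 RPM, but they overlapped in the second. The median body H3K27me3 of long genes was 0.532, 0.528 and 0.490 RPM in +/+ and 0.449, 0.486 and 0.467 in Δ/D329A, so the genotypes did not overlap. For genes of 50 to 100 kb it was 0.364 to 0.381 and 0.335 to 0.368 RPM, which overlap. At 10 RPKM or more it was lower in Δ/D329A in both, at 0.307 and 0.261 RPM in long genes and 0.125 and 0.0904 at 50 to 100 kb. Input over the bodies of all long genes did not overlap either, at 0.882 to 0.887 and 0.876 to 0.880 RPM. The part of input in the H3K27me3 difference was not tested. With 3 libraries a genotype an exact permutation test cannot give a p under 0.1. Median promoter H3K4me3 (16.9 to 19.0 RPM in +/+ and 12.9 to 19.8 in Δ/D329A) and promoter H3K27me3 (0.645 to 0.721 and 0.669 to 0.736 RPM) overlapped. Without Δ/D329A replicate 1 the range of promoter H3K4me3 in Δ/D329A was 17.8 to 19.8 RPM.

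For single genes limma called no long gene for any mark at promoter or body at an adjusted p under 0.05. On simulated data the promoter fits without a filter on input recovered few or none of the changes made, and more with the filter, so the absence of calls there says little about the promoters. Of all genes it called 0% for H3K4me3 and for H3K27me3 at the promoter, 0.0231% for H3K36me3 there, and over the body 0% for H3K4me3 and for H3K36me3 and 0.00846% for H3K27me3. At an unadjusted p under 0.05, 55 long-gene promoters were higher in H3K27me3 and 36 lower (4.37% and 4.53% of all promoters), 3 were higher in H3K4me3 and 19 lower (0.963% and 2.5%), and 55 were higher in H3K36me3 and 6 lower (5.18% and 1.4%). Over the body, 1 long gene was higher in H3K36me3 and 79 were lower (4.6% and 11.5% of all bodies), 6 were higher in H3K27me3 and 37 lower (3.64% and 9.34%), and 1 was higher in H3K4me3 and 3 lower (0.981% and 2.55%). With promoters of little input left out (under 0.1 RPM), limma called 6 long genes higher and 3 lower in H3K27me3 of 913, where 0.8% and 0.207% of 25124 promoters were called, and 1 higher and 6 lower in H3K4me3, where 0.163% and 0.701% were called. By edgeR on recovered reads the counts were 2 higher and 3 lower for H3K27me3, where 0.896% and 0.52% were called, and 0 higher and 1 lower for H3K4me3, where 0.0909% and 0.286% were. For the remaining combinations of mark and region the filter gave 0 calls among long genes (0.0778% of all bodies for H3K4me3, 0.00432% for H3K27me3 and 0% for H3K36me3, and 0.0358% of promoters for H3K36me3), and edgeR gave 0 for the H3K4me3 body (0%), the H3K27me3 body (0.173%) and the H3K36me3 promoter (0%). The 3 lower genes in H3K27me3 by both were Sfmbt2, Rsrc1 and Sox6. Adamts6 was higher by both, and Tanc1, Pdzrn3, Nfia, Dysf and Kcnh8, of which Dysf and Kcnh8 were chosen after their values were seen, were called higher with the filter but not by edgeR, which called Ror1, also chosen after its values were seen, in their place (adjusted p = 0.043). With the filter and 1 library left out at a time, 1 to 12 long genes were called higher and 2 to 3 lower. Sfmbt2 and Adamts6 were called in all 6 of these fits, with adjusted p up to 0.00642 and 0.0181, whereas Rsrc1 was lost in 1 of them, at 0.0739 without +/+ replicate 1, and Sox6 in 3, at 0.0615 without +/+ replicate 2, 0.0573 without +/+ replicate 3 and 0.104 without Δ/D329A replicate 3. The promoters called for H3K4me3 with the filter were Gm20533, which was higher, and Esrrg, Shroom3, Col14a1, Dnahc11, Pappa and Zfp536, which were lower, all but Zfp536 chosen after their values were seen. Dnahc11 was the one called by edgeR. Without Δ/D329A replicate 1, the library that stood apart, none of them was called, 0 higher and 0 lower, and without Δ/D329A replicate 2 the filter called 17 lower.

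At the promoter of Sfmbt2, which encodes a Polycomb group protein, H3K27me3 was 5.88, 6.15 and 6.0 RPM in +/+ and 1.85, 3.90 and 2.79 RPM in Δ/D329A. The genotypes did not overlap (log2 difference -1.11 ± 0.17 SE, limma adjusted p = 0.406 over all promoters and 5.51e-05 with the filter on input, edgeR adjusted p = 0.000767). Its expression was 1.42, 1.16, 1.02, 1.02 and 1.07 RPKM in +/+ and 1.88, 1.60, 1.80 and 2.08 RPKM in Δ/D329A (log2 difference 0.70 ± 0.16 SE, limma adjusted p = 0.234, edgeR 0.0085), again without overlap. Legends in the study describe the ChIP-seq mice as male and disagree on the sex of the RNA-seq mice, so expression and marks set side by side may come from mice of different sex. Promoter H3K4me3 of Sfmbt2 was low in both genotypes, at 0.349 and 0.168 RPM, below the input of 0.684 and 0.928 RPM.

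At the promoter of Rsrc1, a splicing factor rich in arginine and serine, H3K27me3 was 6.67, 6.03 and 5.80 RPM in +/+ and 3.90, 3.40 and 4.21 RPM in Δ/D329A. These did not overlap (log2 difference -0.67 ± 0.15 SE, limma adjusted p = 0.313 over all promoters and 0.00559 with the filter, edgeR adjusted p = 0.00123). Expression was 4.17, 4.08, 3.57, 3.08 and 2.92 RPKM in +/+ and 6.34, 4.60, 5.42 and 6.21 RPKM in Δ/D329A (log2 difference 0.67 ± 0.16 SE, limma adjusted p = 0.235, edgeR 0.00283), again without overlap. The homeobox gene Shox2 starts 381 bases away on the other strand, so that the window covers both starts, and it stood at a mean of 1.54 RPKM in +/+ and 3.34 in Δ/D329A. H3K4me3 there varied widely, from 1.23 to 13.3 RPM in +/+ and from 3.74 to 26.0 in Δ/D329A.

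Sox6, a transcription factor of neuronal and glial development, had promoter H3K27me3 of 4.37, 4.74 and 4.96 RPM in +/+ and 2.66, 3.38 and 2.21 RPM in Δ/D329A, without overlap (log2 difference -0.77 ± 0.17 SE, limma adjusted p = 0.384 over all promoters and 0.00562 with the filter, edgeR adjusted p = 0.00133). Unlike at Sfmbt2 and Rsrc1, its expression overlapped, at 1.84 to 2.90 RPKM in +/+ and 2.53 to 3.04 in Δ/D329A (DESeq2 adjusted p = 0.476). At Adamts6 the mark lay the other way, with 0.189, 0.360 and 0.471 RPM in +/+ and 1.65, 0.955 and 1.37 RPM in Δ/D329A (log2 difference 1.72 ± 0.30 SE, limma adjusted p = 0.355 over all promoters and 0.000303 with the filter, edgeR adjusted p = 0.0484). The median promoter input of all long genes was 0.789 RPM in +/+ and 0.804 in Δ/D329A, above each +/+ value of H3K27me3 at Adamts6. Promoter H3K4me3 of Adamts6 was 28.0 to 31.0 RPM in +/+ and 17.1 to 27.7 in Δ/D329A (edgeR adjusted p = 0.0525). Body H3K36me3 of Adamts6 was 1.09, 1.19 and 1.05 RPM in +/+ and 0.827, 0.969 and 0.797 in Δ/D329A (edgeR adjusted p = 0.0185), 1 of 4 long genes called for that mark by edgeR, where 0.189% of all bodies were called lower. The other 3 were higher, where 0.557% were, namely Fstl4 (0.728 and 0.834 RPM), Runx2, a transcription factor of bone (0.690 and 0.784 RPM), and C130026I21Rik, chosen after its values were seen (0.439 and 0.502 RPM).

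**Figure D5:**
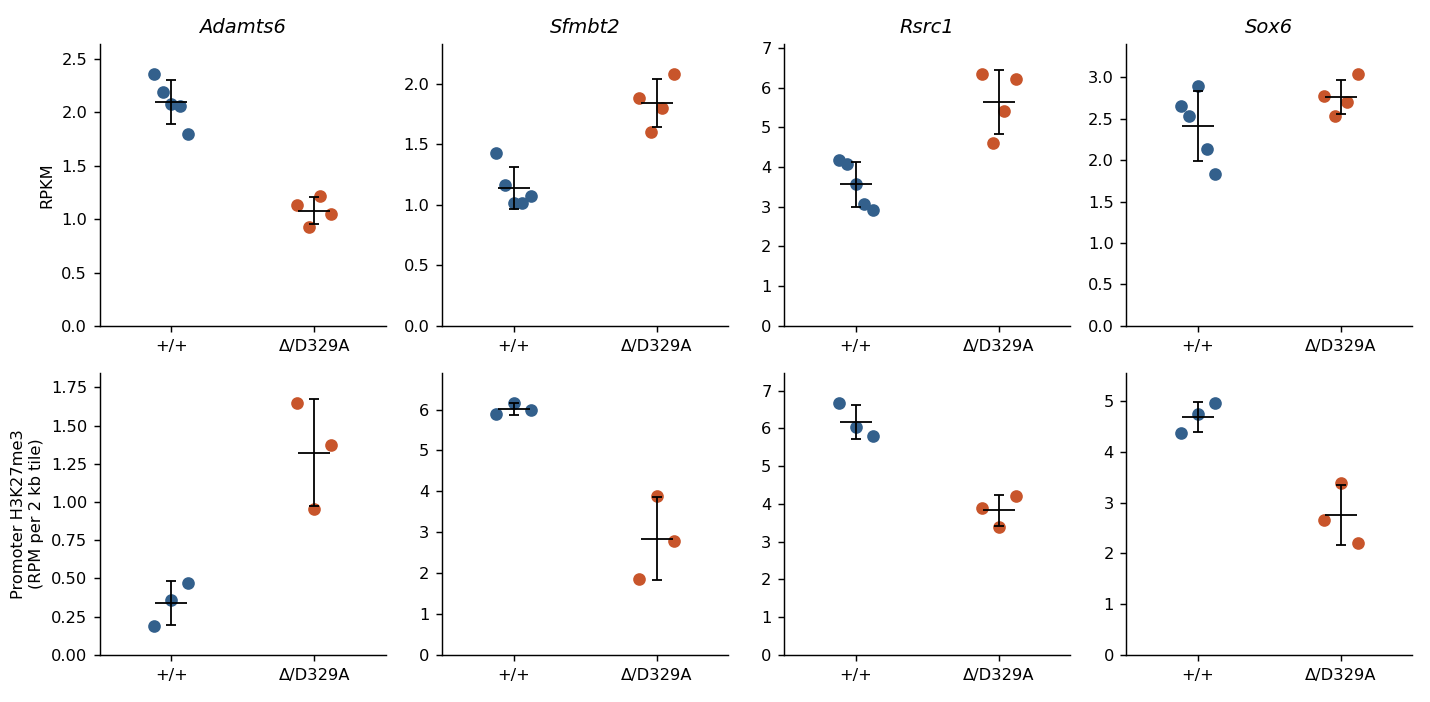
Expression in RPKM (top; 5 +/+ and 4 Δ/D329A libraries) and promoter H3K27me3 in RPM per 2 kb tile (bottom; 3 libraries a genotype) of Adamts6, Sfmbt2, Rsrc1 and Sox6, as points for libraries with the mean and SD. The genotypes are apart in both rows for the first 3 genes and in the lower row only for Sox6.

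The 8 long genes with the strongest promoter H3K27me3 in +/+ were Hpse2, Myo5b, Rsrc1, Sfmbt2, Corin, 2610307P16Rik, Kcnq1 and Hmcn1. Rsrc1 and Sfmbt2 were called lower, and in the other 6 no test called a difference. Of all promoters, 0.207% were called lower by limma with the filter and 0.52% by edgeR. The 8 were chosen by their +/+ values, which also enter the comparison. Hpse2, a heparanase-like protein, had 6.76 RPM in +/+ and 5.30 in Δ/D329A (edgeR adjusted p = 0.0996), Myo5b, a myosin motor, 6.24 and 5.09 (0.376), Corin, a serine protease, 5.55 and 5.43 (0.894), and Kcnq1, a potassium channel, 5.22 and 5.47 RPM (0.976). For H3K4me3, Esrrg, an orphan nuclear receptor chosen after its values were seen, had 4.05, 4.69 and 5.52 RPM in +/+ and 1.22, 3.0 and 0.807 RPM in Δ/D329A (log2 difference -1.64, limma adjusted p = 3.3e-05 with the filter, edgeR adjusted p = 0.118). Without Δ/D329A replicate 1 its limma adjusted p with the filter was 0.318. Its expression overlapped, at 1.45 to 2.33 and 1.59 to 2.74 RPKM.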

How the data were processed

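Hypothalamus of +/+ and Δ/D329A mice was measured by RNA-seq (5 and 4 animals) and by native ChIP-seq (3 animals of each genotype for each mark and input). For RNA-seq the authors trimmed reads, mapped them to GRCm38 with HiSat2, merged reads over exons in SeqMonk and deposited log2 RPKM; a gene without a read stands at a floor of 0.9 reads. The sources differ on whether the RNA-seq kit marks strand, and whether reads were merged by strand is not stated, so reads of genes that overlap on opposite strands may not be separated. For ChIP-seq the authors mapped reads with Bowtie and deposited as signal the reads in tiles of 2000 bases, one every 1000 bases, scaled to the mapped reads (RPM), without input subtracted. The submitters' processing notes name Trim Galore 0.4.3, HISAT2 2.0.5 and Bowtie2 2.3.2. Whole reads were recovered for 100% of values, with a tolerance of 0.02 reads (RNA) and 0.01 reads (ChIP).

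Genes were chosen by start and end in the RNA-seq table, and the members, lists and tests were chosen with earlier results of these data known. Limma 3.58.1 (R 4.3.3) compared the log2 RPKM of genes with 0.1 RPKM or more in 4 libraries or more, calling genes at an adjusted p (Benjamini-Hochberg) under 0.01. Expression was also compared on recovered reads with edgeR 4.0.16, which called 77 of 13890 genes, and DESeq2 1.42.0, which called 249 of 20392. Marks were averaged over tiles centred in the promoter or body and compared with limma on log2 of RPM plus 0.1 at an adjusted p under 0.05. All fits covered the whole table and are two-sided, and the scripts were tested on simulated data. A filter on input of 0.1 RPM, other scalings, pseudocounts and filters, a replicate block and leaving out each library were alternatives. Replicates are single animals. The precision of the marks rests on a depth of 3 ChIP libraries a genotype.

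Genes named are the 8 longest, the 8 most expressed, the 5 with the smallest p in each direction of expression, the 8 promoters and 5 bodies highest in H3K27me3, the 5 highest and 3 lowest bodies in H3K36me3, up to 5 called or the 3 with the smallest p per mark and direction, those beside the length limit, and the 3 most expressed of each list. Bisulfite data and other tissues of the study were not analysed here. Not every gene named by this rule is described, and some of them and some promoter sequences are not reported here.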

Additional observations from a re-analysis of the deposited data

Results flagged for a closer look

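Among 40 groups of 4 or 5 libraries checked for the named long genes, 1 held a library far from the others, and chance flags about 1 group in 20. Plekhg1 had a log2 RPKM of 1.79 in +/+ replicate 5, whereas the other 4 +/+ libraries lay between 1.28 and 1.37, so that the gap was 0.817 of the whole range. All 4 Δ/D329A libraries lay above that library, at 3.65 RPKM or more against 3.45 RPKM.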

How the results depend on the processing

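Settings that changed a count of called long genes all added calls to a count of 0, and no result changed its direction. For expression, median centring called 1 lower, quantile normalization 1 higher and 1 lower, edgeR 5 higher and 3 lower, and DESeq2 34 higher and 6 lower. For promoter H3K4me3, quantile normalization called 1 lower, the filter on input 1 higher and 6 lower, and edgeR 1 lower. For promoter H3K27me3, median centring called 1 higher and 1 lower, quantile normalization 1 and 3, the filter on input 6 and 3, and edgeR 2 and 3. For body H3K36me3, edgeR called 3 higher and 1 lower. The cause was not tested. The within-library difference between long genes and genes of 50 to 100 kb was 0.17 and moved by more than the SD to 0.111 with untested genes included, 0.0967 within expression classes, 0.139 without overlapping genes and 0.0866 against genes of 100 to 200 kb. Leaving out 1 library at a time gave 0.161 to 0.178 for that difference, 0 called long genes for expression and for each mark, and 1.64 to 1.68 for the H3K36me3 ratio of the last to the first part of the body. With the filter on input as well, which was added after seeing the data, promoter H3K4me3 had 0 to 2 called higher and 0 to 17 lower, with none without Δ/D329A replicate 1, and promoter H3K27me3 had 1 to 12 higher (4 without +/+ replicate 1 or 3) and 2 to 3 lower.

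With the replicate number as a block, 0 long genes were called for expression and for each mark. Libraries with the same number did not deviate together for expression (r = 0.137, -0.0512, -0.0477 and -0.0543), so they share only a number. Another block, the set of animals separated by mitochondrial coverage in the H3K27me3 libraries, was added after seeing the data, as were edgeR on the marks and the comparisons with other reference genes, and that block called 0 long genes. In all, 228 of the alternative values for the counts and the length comparison kept their direction and side of the threshold. The depth of 3 libraries a genotype is among the limits on what can be called for the marks.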
